A study of Mus musculus with 2 samples.

Results

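Genes of the major histocompatibility complex (MHC) and of antigen presentation were described in interscapular brown adipose tissue (iBAT) of wild-type and Ucp1 knockout mice. The members were the genes whose symbol starts with H2-, the mouse name of the MHC, together with B2m, Tap1, Tap2, Tapbp, Cd74, Ciita, Nlrc5, Erap1 and Cd1d1. Of the 27179 genes listed, 50 met this rule. They comprised 31 class I heavy chain genes, 6 genes for partners of class I molecules, 10 class II chain genes, 2 genes for partners of class II molecules and Cd1d1. The question was whether class I and class II genes differed between the genotypes, and whether they did so alike.

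Class I molecules consist of a heavy chain and beta-2-microglobulin and display peptides of cytosolic origin on nearly all nucleated cells. The peptides are carried into the endoplasmic reticulum by the TAP transporter, trimmed there by ERAP1 and loaded with the help of tapasin. Class II molecules are pairs of an alpha and a beta chain and display peptides from endocytosed material, mainly on dendritic cells, macrophages and B cells. The invariant chain, encoded by Cd74, occupies the class II groove until H2-DM exchanges its remnant for a peptide, and H2-O restrains H2-DM. In adipose tissue, class II molecules are known chiefly from tissue macrophages and dendritic cells, whereas class I molecules are carried by adipocytes, endothelial cells and leukocytes alike.

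The study sequenced poly-A RNA of untreated iBAT from C57BL/6N mice at 20 days of age, and UCP1 is the protein by which brown fat produces heat. There was 1 wild-type library and 1 Ucp1-KO library, each made from 3 pooled animals that were described as male. The knockout is given as Δ/Δ, that is, homozygous for a deletion, and the sources used here do not describe the allele further. No replicate error can be given with 1 library per genotype, so every difference is one between these 2 libraries and carries no p-value. An interval given beside a value is a 95% counting interval and covers neither variation between animals nor that of library preparation.

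The libraries held 52950913 (wild-type) and 53216727 (Ucp1-KO) counts. Ucp1 itself was at 366473 and 37853 counts, so the knockout library held 12.7% of the wild-type level after scaling. Of the Y chromosome, Ddx3y, Kdm5d, Uty and Eif2s3y had 0 counts in the wild-type and 491 to 3446 counts in the Ucp1-KO library, which goes against the description of all animals as male. Xist, transcribed from the inactive X chromosome of females, was at 32380 and 16478 counts, so the Ucp1-KO library held it at 62.6% of the wild-type level after scaling. Genotype, sex and the pool of animals cannot be told apart here. Of the markers of other cells, all 10 of skeletal muscle and all 10 of endothelium were lower in the Ucp1-KO library beyond counting error, beside 30.5% of all genes examined. Their median log2 ratios were -2.80 and -0.87. The 9 brown adipocyte markers, of which Fabp4, Cidea and Adipoq were the most abundant, had a median of 0.56. Of the 9, 8 had a ratio above 0, beside 49.9% of all genes examined, and 1, Cox8b, was below at -0.30 (-0.34 to -0.27). In bulk tissue, fewer cells of a type and less RNA per cell cannot be told apart.

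Counts were scaled by size factors to give normalised counts, and a log2 ratio above 0 means a higher normalised count in the Ucp1-KO library. Ratios were read where the normalised count averaged 10 or more over the libraries, which 28 of the 50 members reached. Of the 22 members below it, 15 were at 0 in both libraries, which allows up to 6 counts in each, and 7 held between 0 and 17 counts. Among the 28, the Ucp1-KO library was at least 2-fold higher for 1 member, H2-DMa, where 7.42% of all genes examined were that much higher. It was at least 2-fold lower for 2 members, H2-Q10 and H2-M3, beside 9.55% of all genes. Differences of 2-fold in either direction were thus found in 10.7% of the examined members and in 17.0% of all genes examined.

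Smaller differences were also read against counting error. The interval of the ratio lay above 0 for 9 members (32.1%), beside 31.5% of all genes, and below 0 for 6 members (21.4%), beside 30.5% of all genes. The other 13 intervals included 0, so that 15 excluded it, beside 62.0% of all genes. A ratio above 0 was found for 18 of the 28, beside 49.9% of all genes. The median over the examined members was 0.05 and that over all genes -0.0016. Small directions depended on the scaling. Dividing by the library totals alone lowered the median of all genes by 0.31 on the log2 scale. Ratios between 0 and about that size then turn negative. With it, 2 members (H2-DMa and H2-T22) had intervals above 0 and 14 had intervals below 0. The shares of all genes with this scaling are not given here, so these counts are not read as a trait of the members. Ratios between genes of the same library do not depend on the scaling and are given below where they bear on a result.

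**Figure D1:**
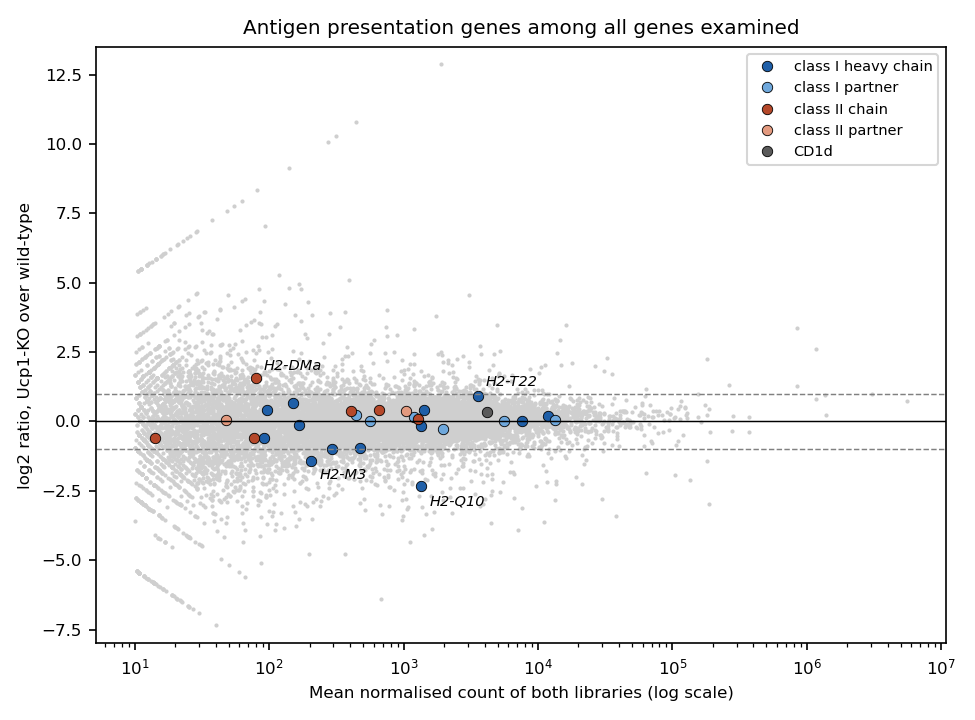
Each grey point is 1 of the 15212 genes examined, placed by its mean normalised count in the 2 libraries (log scale) and its log2 ratio of Ucp1-KO over wild-type, and coloured points are the 28 examined antigen presentation genes. Dashed lines mark 2-fold differences, beyond which lie H2-DMa above and H2-Q10 and H2-M3 below.

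The classical class I heavy chains, which present peptides to CD8 T cells, had the highest levels per kilobase of transcript among the heavy chains and differed little. H2-K1 was at 11153 (wild-type) and 12765 (Ucp1-KO) normalised counts, a log2 ratio of 0.19 (0.14 to 0.25). With total counts it turned to -0.11. H2-D1 was at 7561 and 7696 normalised counts, with a log2 ratio of 0.03 (-0.04 to 0.09), so the libraries did not differ beyond counting error at this scaling. With total counts it was at -0.28 (-0.35 to -0.22), below 0 beyond counting error. Together H2-K1 and H2-D1 made up 67.0% of wild-type and 69.1% of Ucp1-KO class I heavy chain counts.

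The H2-Q genes encode nonclassical class I molecules, and the group was split. H2-Q10, which encodes a secreted class I molecule known from liver, was at 2245 normalised counts in the wild-type but 444 in the Ucp1-KO library. The knockout level was 5.05-fold lower, with a log2 ratio of -2.34 (-2.56 to -2.12), at percentile 2.16 of the ratios of all genes examined. H2-Q4 differed in the opposite direction, at 1225 and 1626 normalised counts and a log2 ratio of 0.41 (0.26 to 0.56), but with total counts its interval included 0. The counts of H2-Q10 per 100 counts of H2-Q4 numbered 183 (wild-type) and 27.3 (Ucp1-KO), a log2 difference of -2.75 (-3.01 to -2.49) that does not depend on scaling. H2-Q6 and H2-Q7, which encode Qa-2, had intervals that included 0. Genes of the liver were examined after the value of H2-Q10 was seen: Alb was at 2 counts in both libraries, Ttr at 2 and 0, Fgb at 0 in both, and Apoa1 at 16 and 0. Apoa1 was thus lower in the same library as H2-Q10, which held 2491 and 400 counts, and the part of liver RNA in the value of H2-Q10 was not tested.

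The bases just upstream of H2-Q10 are shown beside those of H2-K1, since these sequences are alike while the genes differed in their ratios. Each is the stretch of 250 bases before the start of the canonical transcript, read 5′ to 3′ on the strand of the gene from GRCm39, the build that the files also use. Capitals mark matches, on either strand, to CCAAT, to TGACNNCA (a cyclic AMP response element-like box), to GAAA followed after any 2 bases by GAAA (a core of interferon response elements) and to GGGGA followed after any 2 bases by CCC (a kappa B-like site). H2-K1 lies at chr17:34219322-34219571 (minus strand) and H2-Q10 at chr17:35780709-35780958 (plus strand).
H2-K1: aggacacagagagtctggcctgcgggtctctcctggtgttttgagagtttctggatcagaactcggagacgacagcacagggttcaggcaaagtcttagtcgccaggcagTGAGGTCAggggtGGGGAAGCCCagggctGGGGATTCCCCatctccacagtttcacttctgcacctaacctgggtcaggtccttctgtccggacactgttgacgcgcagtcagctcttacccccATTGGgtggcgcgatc
H2-Q10: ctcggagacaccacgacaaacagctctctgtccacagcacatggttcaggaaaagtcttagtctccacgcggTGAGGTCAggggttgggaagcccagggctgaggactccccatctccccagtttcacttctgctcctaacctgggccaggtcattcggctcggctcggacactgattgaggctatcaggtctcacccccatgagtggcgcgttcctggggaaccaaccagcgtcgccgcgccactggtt
The aligned part covered 197 bases, of which 87.3% were identical. Both hold TGACNNCA on the reverse strand, 140 bases upstream of the start in H2-K1 and 178 bases upstream in H2-Q10. H2-K1 also holds the kappa B-like site at 127 and 111 bases upstream, the latter overlapped by a match on the other strand, and CCAAT at 16 bases, whereas none of these letters occurred in the H2-Q10 window. The kappa B-like site occurred in 1.65% of 21770 gene promoters of this length and in 3 of the 45 members with a promoter, namely H2-K1, H2-Q6 and H2-Q7. TGACNNCA occurred in 14.6% of all promoters and in 8 members. The window of H2-D1 held no match to any of these motifs, and that of H2-Q4 held CCAAT but no kappa B-like site. Whether these letters bear on the levels was not tested.

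Among the H2-T genes, H2-T22 was higher and its neighbours were not. H2-T22, a class I molecule recognised by gamma-delta T cells, was at 2477 (wild-type) and 4637 (Ucp1-KO) normalised counts, which was 1.87-fold higher, with a log2 ratio of 0.90 (0.81 to 1.00). With total counts the ratio was 0.60, and its interval stayed above 0. H2-T10, its close relative with the same kind of ligand, was at 111 and 73.2 normalised counts, and its interval included 0 at -0.60 (-1.25 to 0.03), whereas with total counts it was at -0.90 (-1.56 to -0.27). The counts of H2-T22 per 100 counts of H2-T10 numbered 2234 (wild-type) and 6333 (Ucp1-KO), a log2 difference of 1.50 (0.89 to 2.12). H2-T23 encodes Qa-1, which presents peptides of class I leader sequences to receptors of natural killer cells. It was at 1426 and 1273 normalised counts, with a log2 ratio of -0.16 (-0.32 to -0.01). H2-T24 was at 630 and 324 normalised counts, a log2 ratio of -0.96 (-1.25 to -0.68). Both were thus lower in the Ucp1-KO library while H2-T22 was higher.

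Reads of H2-T22 and H2-T10 can be confused, because 13.8% of the 100-base windows of the H2-T22 transcript occur in another gene, and 9.50% of all its windows occur in H2-T10. H2-T22, H2-T23 and H2-T24 also overlap the gene A930015D03Rik, which was at 95 and 136 counts and had a log2 ratio of 0.81 (0.26 to 1.38). How the counting treated shared or overlapping reads is not given in the sources used here. The upstream sequences of H2-T22 (chr17:36353651-36353900, minus strand) and H2-T10 (chr17:36432358-36432607, minus strand) are shown because the genes are close copies whose ratios had opposite signs.
H2-T22: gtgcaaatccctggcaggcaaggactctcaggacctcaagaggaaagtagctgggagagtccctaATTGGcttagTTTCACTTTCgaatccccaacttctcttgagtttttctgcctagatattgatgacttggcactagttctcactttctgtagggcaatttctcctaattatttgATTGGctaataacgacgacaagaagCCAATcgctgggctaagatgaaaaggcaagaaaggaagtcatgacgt
H2-T10: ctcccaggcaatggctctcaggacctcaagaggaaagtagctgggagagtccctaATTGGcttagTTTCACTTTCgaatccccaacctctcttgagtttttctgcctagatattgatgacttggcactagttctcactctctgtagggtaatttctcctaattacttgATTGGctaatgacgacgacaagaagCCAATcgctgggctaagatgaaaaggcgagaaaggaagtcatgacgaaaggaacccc
Over 240 aligned bases, 95.4% were identical. Each holds 3 matches to CCAAT and 1 to the interferon response core, the latter at 175 bases upstream of the start in H2-T22 and at 185 bases in H2-T10. The interferon response core occurred in 3.32% of all promoters and in 4 of the 45 members, and CCAAT in 36.5% of all promoters and in 29 members.

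Of the H2-M class I genes, H2-M3, which presents N-formylated peptides of bacteria and mitochondria, was at 298 (wild-type) and 112 (Ucp1-KO) normalised counts. It was 2.66-fold lower, with a log2 ratio of -1.41 (-1.90 to -0.95), so the near end of the interval lay just inside the 2-fold line. H2-M9 was higher, at 117 and 184 normalised counts and 0.65 (0.17 to 1.14), although with total counts its interval included 0. H2-M5 held 17 wild-type counts and 0 Ucp1-KO counts, and the counting interval of its log2 ratio ended at -0.58, on counts too low for it to be among the examined genes. H2-M5 overlaps Zfp57, which was at 307 and 191 counts. The remaining low heavy chains were H2-M11 (6 and 10 counts), H2-Q1 (1 and 1), H2-T9 and H2-T25 (2 and 0 each), for which no difference was detectable at this depth. The 13 heavy chains at 0 in both libraries were H2-Q2, H2-Bl, H2-T3, H2-T26, H2-T27, H2-M1, H2-M2 and the 6 H2-M10 genes. H2-K2 was at 391 and 196 normalised counts, a log2 ratio of -0.99 (-1.37 to -0.63).

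**Figure D2:**
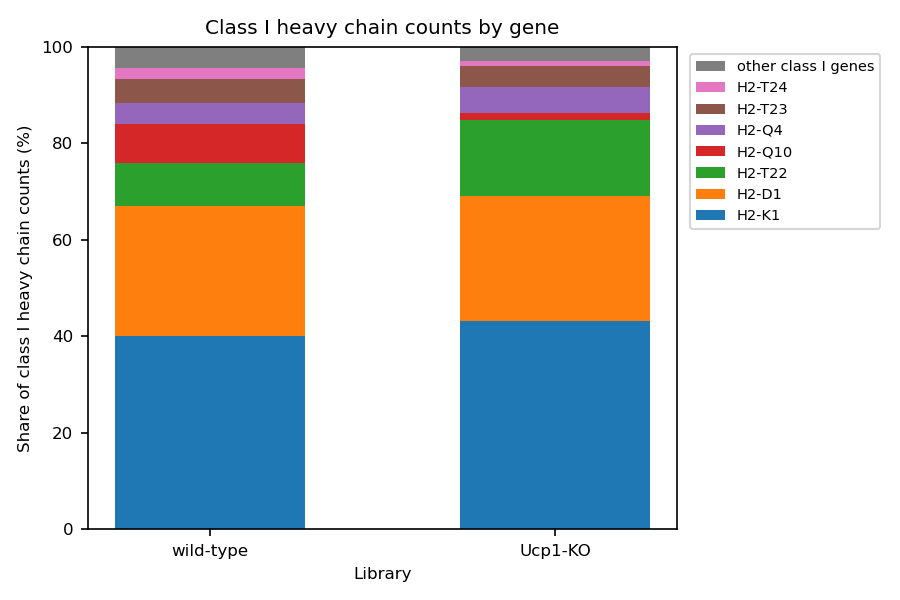
Stacked bars give the share of each gene (%) in all class I heavy chain counts, for the wild-type (left) and Ucp1-KO (right) libraries, with 1 library per bar and no error bar. H2-T22 took 8.87% (left) and 15.7% (right), and H2-Q10 took 8.04% and 1.50%, while H2-K1 and H2-D1 held 67.0% and 69.1% together.

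The class I heavy chain counts differed more by gene than in sum. H2-T22 held 8.87% (8.43 to 9.33) of class I heavy chain counts in the wild-type library against 15.7% (15.0 to 16.3) with Ucp1 knocked out. H2-Q10 held 8.04% (7.62 to 8.49) against 1.50% (1.30 to 1.72). The 13 examined heavy chains showed a median of -0.14 on the log2 scale and a range of -2.34 to 0.90. Their summed normalised counts, which the abundant genes dominate, gave 0.08 (0.05 to 0.12), so the median and the sum differed in sign at this scaling. Before scaling, the class I heavy chain counts summed to 30973 (wild-type) and 26690 (Ucp1-KO), and with total counts the median was -0.45. The contrast of sign therefore depends on the scaling. By gene, 4 intervals lay above 0 (30.8%, beside 31.5% of all genes examined) and 5 below (38.5%, beside 30.5%).

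The partners of class I molecules differed less than the heavy chains. B2m, the light chain, was at 13165 and 13553 normalised counts with a log2 ratio of 0.04 (-0.01 to 0.09). Per kilobase of its canonical transcript, B2m had the highest level of all members, 12123 and 12480 normalised counts, followed by H2-K1 at 6889 and 7885 and H2-D1 at 3572 and 3635. Of the transporter subunits, Tap1 was at 556 and 561 normalised counts (0.01, interval -0.23 to 0.26) and Tap2 at 1129 and 1251 (0.15, interval -0.02 to 0.31). Neither subunit nor B2m differed beyond counting error at this scaling.

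Tapbp, which encodes tapasin, was at 5583 and 5656 normalised counts, with a log2 ratio of 0.02 (-0.06 to 0.09). Nlrc5, the transactivator of class I genes, was at 409 and 481 normalised counts and 0.23 (-0.04 to 0.51). Erap1, the peptide-trimming aminopeptidase, was the exception, at 2129 and 1784 normalised counts and -0.26 (-0.39 to -0.12). The 6 partners had a median of 0.03. Of the 6 intervals, 5 included 0 and 1 excluded it (16.7%, beside 62.0% of all genes examined). With total counts the intervals of B2m, Tap1, Tapbp and Erap1 lay below 0, and the share of all genes with that scaling is not given here. Tap1 overlaps Psmb9, an immunoproteasome subunit at 249 and 201 counts, and Erap1 overlaps Cast at 4243 and 4075 counts. Nlrc5 lies on chromosome 8, 11.1 Mb from Ucp1.

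**Figure D3:**
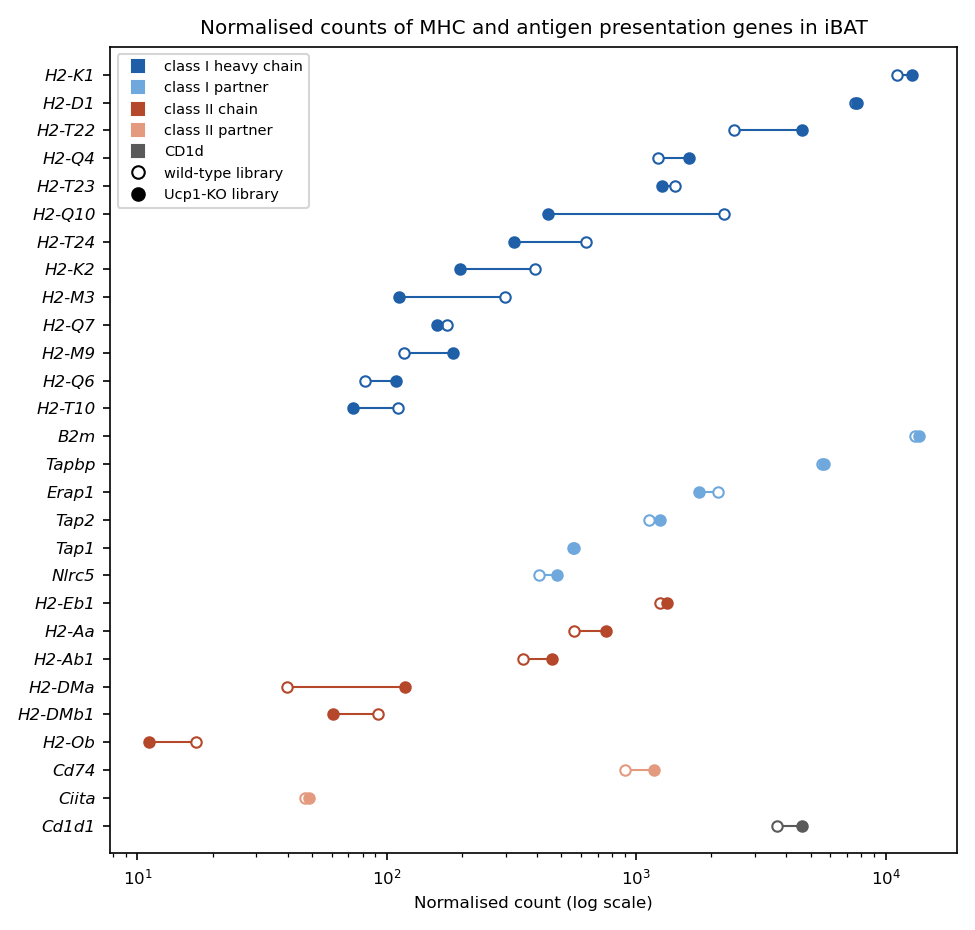
Normalised counts (log scale) of the 28 examined genes in the wild-type library (open circles) and in the Ucp1-KO library (filled circles), ordered within each class by their mean, with 1 library per genotype. Long bars mark H2-Q10, H2-M3 and H2-DMa, and B2m and H2-K1 stand at the top of their classes.

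The class II alpha and beta chains that bind peptide were below the classical class I chains per kilobase of transcript, where H2-Eb1 was at 734 and 783, H2-Aa at 498 and 669 and H2-Ab1 at 291 and 379 normalised counts. H2-Aa was at 562 and 754 normalised counts, a log2 ratio of 0.43 (0.20 to 0.65), and H2-Ab1, which encodes its partner chain, at 352 and 459, a log2 ratio of 0.38 (0.09 to 0.67). H2-Eb1, the highest of them, was at 1246 and 1329 normalised counts and did not differ beyond counting error at 0.09 (-0.07 to 0.25). H2-Ea and H2-Eb2 were at 0 in both libraries. Mice of the b haplotype, such as C57BL/6, are known to lack the promoter of H2-Ea, so that the H2-E beta chain has no alpha partner in them. With total counts the ratio of H2-Aa was 0.12 and that of H2-Ab1 0.08, and both intervals included 0, while H2-Eb1 turned to -0.21 (-0.37 to -0.05).

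H2-DMa and H2-DMb1 encode the chains of H2-DM, the peptide exchange factor, and had ratios of opposite sign. H2-DMa was at 44 wild-type counts (39.7 normalised) and 107 Ucp1-KO counts (119 normalised), which was 2.97-fold higher, with a log2 ratio of 1.57 (0.84 to 2.37). Its interval reached below 1, so that a difference of 2-fold lies within counting error. H2-DMb1 was at 102 and 55 counts, with a log2 ratio of -0.59 (-1.32 to 0.10), which with total counts was -0.89 (-1.62 to -0.20). The counts of H2-DMa per 100 counts of H2-DMb1 numbered 43.1 (wild-type) and 195 (Ucp1-KO), a log2 difference of 2.17 (1.19 to 3.15). H2-DMb2 was at 3 and 11 counts and shares 13.1% of its 100-base windows with H2-DMb1. H2-DMa overlaps the abundant gene Brd2, which was at 7417 and 8036 counts, with a log2 ratio of 0.42 (0.35 to 0.48). The part of reads from Brd2 in the value of H2-DMa was not tested.

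Of the H2-O chains, H2-Oa was at 4 and 10 counts and H2-Ob at 19 and 10 counts, and both intervals included 0. Cd74 was at 906 and 1183 normalised counts, a log2 ratio of 0.38 (0.21 to 0.56), close to those of H2-Aa and H2-Ab1, and its interval included 0 with total counts. The counts of Cd74 per 100 counts of H2-Aa, H2-Ab1 and H2-Eb1 were 41.9 and 46.5, a log2 difference of 0.15 (-0.06 to 0.36). Ciita, the transactivator of class II genes, was low, at 52 and 44 counts, and its interval was wide at 0.06 (-0.83 to 0.93). Cd1d1, which presents lipids to natural killer T cells, was at 3657 and 4624 normalised counts, a log2 ratio of 0.34 (0.25 to 0.43). Cd1d1 shares 14.5% of its 100-base windows with Cd1d2, which held 7 and 6 counts, and with total counts its interval included 0.

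The upstream sequences of the alpha and beta chains of H2-A and of H2-DMa are shown since the box-like elements of class II promoters are known to drive them together. They lie at chr17:34506798-34507047 (minus strand, H2-Aa), chr17:34481933-34482182 (plus strand, H2-Ab1) and chr17:34354310-34354559 (plus strand, H2-DMa), and capitals mark the same motifs as above.
H2-Aa: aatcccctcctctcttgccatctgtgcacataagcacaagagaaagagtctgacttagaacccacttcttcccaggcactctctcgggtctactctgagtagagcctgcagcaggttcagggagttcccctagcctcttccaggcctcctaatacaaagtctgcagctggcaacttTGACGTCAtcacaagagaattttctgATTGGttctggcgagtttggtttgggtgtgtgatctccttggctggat
H2-Ab1: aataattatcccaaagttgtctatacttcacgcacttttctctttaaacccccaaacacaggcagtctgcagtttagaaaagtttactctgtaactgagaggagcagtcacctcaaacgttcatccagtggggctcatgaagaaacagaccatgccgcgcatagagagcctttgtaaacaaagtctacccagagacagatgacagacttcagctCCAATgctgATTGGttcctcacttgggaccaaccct
H2-DMa: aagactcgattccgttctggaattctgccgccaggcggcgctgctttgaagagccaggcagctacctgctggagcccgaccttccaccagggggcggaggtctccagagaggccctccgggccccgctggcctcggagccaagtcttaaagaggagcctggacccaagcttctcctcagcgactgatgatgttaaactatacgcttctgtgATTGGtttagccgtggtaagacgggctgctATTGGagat
H2-Aa holds TGACNNCA at 74 bases upstream of the start, where the letters read the same on both strands, and CCAAT at 48 bases. H2-Ab1 holds CCAAT at 36 and 27 bases and H2-DMa at 39 and 9 bases, counted on either strand. H2-Aa was the only one of the 10 class II chain promoters with TGACNNCA, while 7 of the 10 held CCAAT. A match of letters is a description and not a measured site.

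**Figure D4:**
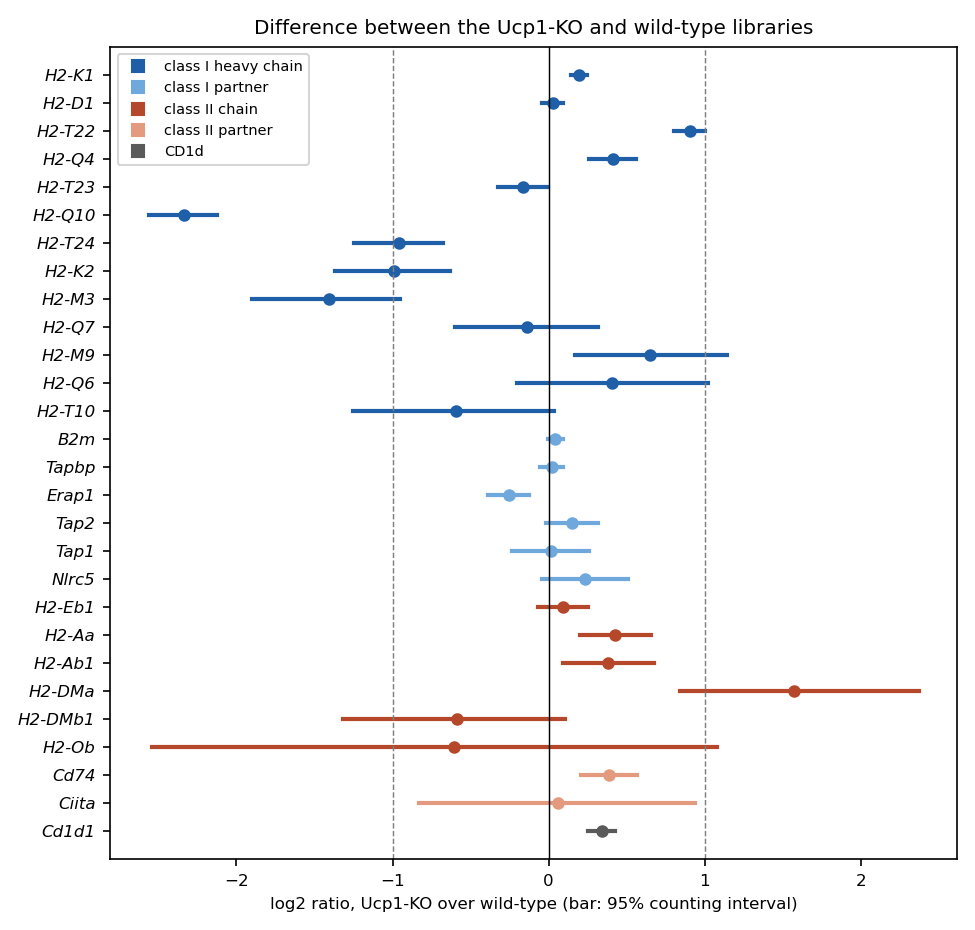
Points give the log2 ratio of Ucp1-KO over wild-type for each of the 28 examined genes and horizontal bars its 95% counting interval, with dashed lines at 2-fold. H2-Q10 alone lies with its whole interval beyond a 2-fold difference, while H2-DMa and H2-M3 reach back over the line.

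Class I and class II were then compared. The 6 examined class II chains showed a median of 0.24 on the log2 scale against -0.14 for the 13 examined class I heavy chains, a difference of 0.38. This difference of medians has no counting interval of its own. A rough band from the median ends of the members' intervals ran from -0.08 to 0.98 and included 0. The summed class II chains had a log2 ratio of 0.25 (0.14 to 0.37). The class II chain counts per 100 class I heavy chain counts numbered 8.29 (wild-type) and 9.31 (Ucp1-KO), a log2 difference of 0.17 (0.05 to 0.28) that does not depend on scaling. Restricted to H2-Aa, H2-Ab1 and H2-Eb1 against H2-K1 and H2-D1, the values were 11.5 and 12.4 and the log2 difference 0.11 (-0.02 to 0.23), which included 0. With all partners included, the class II genes had a median of 0.24 and the class I genes one of 0.02. With total counts the median of the class II chains was -0.069 and that of the class I heavy chains -0.45. The direction of class II thus flipped. A change of scaling moves all ratios by nearly the same amount. The difference between the classes, again 0.38, was therefore bound to stay and is not checked by it.

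Markers of the cells that carry class II were read beside these values. The 6 pan-leukocyte genes were all above 0, beside 49.9% of all genes examined, with a median of 0.62. Of their intervals, 4 lay above 0 (66.7%, beside 31.5% of all genes), and those of Laptm5 and Cd52 included 0. The summed normalised counts of the 6 were 1881 (wild-type) and 2834 (Ucp1-KO). The highest were Lcp1, Laptm5 and Ptprc, of which Laptm5, at 0.22, would turn negative with total counts. The counts of H2-Aa, H2-Ab1 and H2-Eb1 per 100 counts of Ptprc, the leukocyte surface phosphatase CD45, numbered 770 (wild-type) and 509 (Ucp1-KO), a log2 difference of -0.60 (-0.91 to -0.28). Ptprc had the highest ratio of the 6, at 0.83, whereas the sum of the same 3 chains, at 0.24, was close to Laptm5. The 11 macrophage markers had a median of 0.11 and summed normalised counts of 7865 and 9438. At least 2-fold higher were 2 of them (18.2%), Cd68 and Fcgr1, beside 7.42% of all genes examined. Of the most abundant macrophage markers, Lyz2 had a log2 ratio of 0.81, Mertk of 0.08 and Mrc1 of 0.25. Of the 11, 4 were below 0, down to Cd163 at -0.47 (-0.67 to -0.26). The summed macrophage markers had a log2 ratio of 0.26 and the summed dendritic cell markers one of -0.30. Most of the dendritic cell sum came from 1 gene, Zbtb46, at 1311 (wild-type) and 1011 (Ucp1-KO) normalised counts.

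The 7 examined of 10 dendritic cell markers had a median of -0.38, with summed normalised counts of 2064 and 1679 over the whole list. Of the 7, 1 interval lay above 0 (14.3%, beside 31.5% of all genes examined) and 3 lay below (42.9%, beside 30.5%). The most abundant were Zbtb46, at -0.38 (-0.55 to -0.20), Clec9a, at -0.10 (-0.41 to 0.22), and Clec10a, at -0.58 (-1.01 to -0.16). On few reads, Itgax held 29 and 66 counts, a log2 ratio of 1.47 (0.56 to 2.49). Flt3 held 48 and 10 counts, a log2 ratio of -1.92 (-3.71 to -0.54), and Batf3 held 0 and 12. The 6 examined of 8 B cell markers had a median of 0.52. Of their intervals, 1 lay above 0 (16.7%, beside 31.5% of all genes examined) and 5 included 0. The whole list summed to 183 and 241 normalised counts, a log2 ratio of 0.40 (-0.01 to 0.80). Fcer2a held 0 and 4 counts and Pax5 held 2 and 0, with intervals that included 0. The 7 examined of 10 T and natural killer cell markers had a median of -0.04, and the whole list had sums of 167 and 156. Cd3d held 10 and 0 counts, and its interval included 0. The 8 markers of preadipocytes and fibroblasts had a median of -0.16. Endothelial markers, of cells that carry class I molecules, summed to 120495 and 72188 normalised counts, and those of skeletal muscle to 224245 and 28564. The part of these cells in the class I and class II values was not tested.

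**Figure D5:**
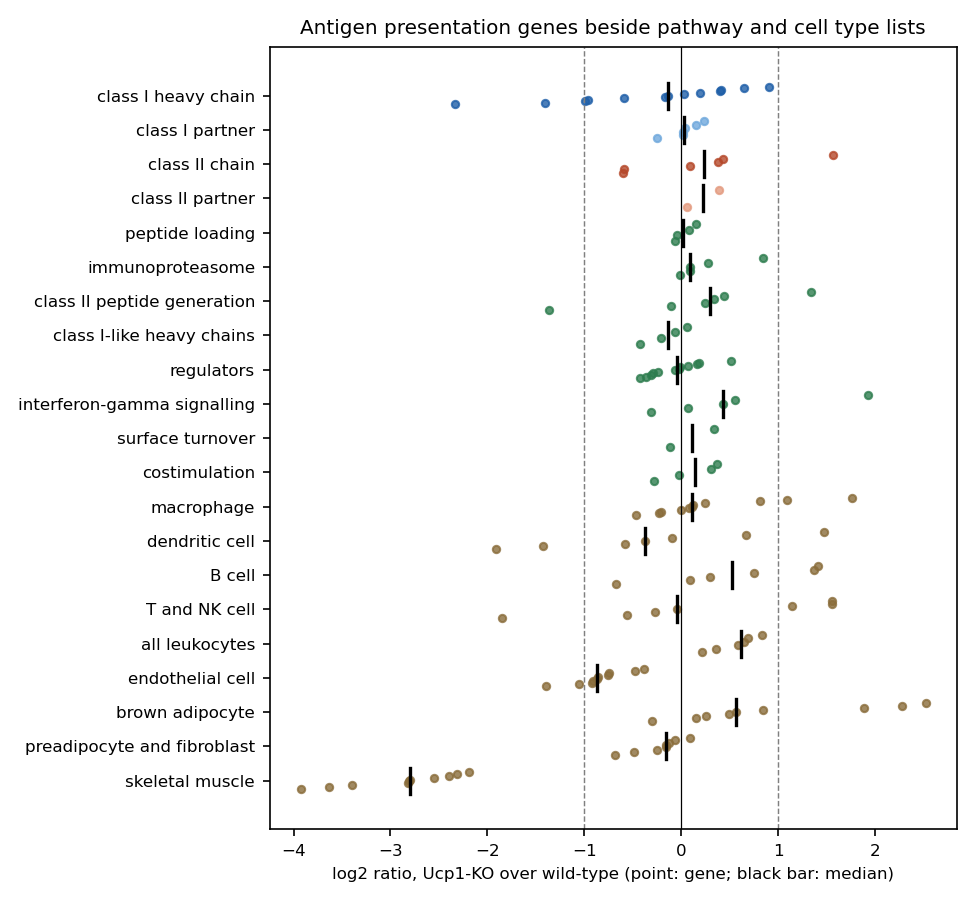
Points give the log2 ratios (Ucp1-KO over wild-type) of the examined genes of each list and black bars the median, for the antigen presentation classes (blue and red), other genes of the pathway (green) and cell type markers (brown). The class medians lie between -0.14 and 0.24, whereas those of muscle, endothelium and leukocytes lie at -2.80, -0.87 and 0.62.

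Of 47 further genes of the antigen presentation pathway, 42 were examined. At least 2-fold higher were 2 (4.76%), Ctss and Socs1, beside 7.42% of all genes, and at least 2-fold lower was 1 (2.38%), Ifi30, beside 9.55%. Their median was 0.06. Intervals lay above 0 for 12 and below 0 for 12, which is 28.6% each, beside 31.5% and 30.5% of all genes. Ctss, the protease cathepsin S that degrades the invariant chain, was at 421 and 1062 normalised counts, a log2 ratio of 1.33 (1.11 to 1.57). Ifi30, the lysosomal thiol reductase that opens disulfide bonds of antigens, was at 919 and 357 normalised counts, a log2 ratio of -1.36 (-1.63 to -1.11). The counts of Ctss per 100 counts of Ifi30 numbered 45.8 (wild-type) and 297 (Ucp1-KO). Ctsl, a related protease, had a log2 ratio of 0.44 (0.38 to 0.50).

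Psme1 encodes a subunit of the proteasome activator induced by interferon-gamma. It was at 2996 and 5379 normalised counts, a log2 ratio of 0.84 (0.75 to 0.94). Psme2, which encodes another subunit of this activator, was at 3011 and 3648, a log2 ratio of 0.28 (0.18 to 0.38). The immunoproteasome subunits Psmb8, Psmb9 and Psmb10 had ratios between -0.01 and 0.09, with intervals that included 0. Of the interferon-gamma receptor pathway, Jak2, its kinase, was at 0.55 (0.44 to 0.66) and the receptor chain Ifngr2 at 0.43 (0.23 to 0.63). Ifng itself was at 0 in both libraries, and Socs1, an inhibitor of the pathway, held 8 and 26 counts. These genes did not move one way throughout, since Ifngr1 was at -0.31 (-0.38 to -0.25).

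The 12 regulators of MHC transcription had a median of -0.04, with 5 intervals below 0 (41.7%, beside 30.5% of all genes) and 0 above (beside 31.5%). Rfx5, a subunit of the complex that binds the X box of class II promoters, was at -0.42 (-0.85 to -0.01), and Spi1, the myeloid transcription factor PU.1, at 0.51 (-0.12 to 1.15). Among class I-like chains, Procr, the endothelial protein C receptor, was at -0.42 (-0.77 to -0.09). Icosl, a costimulatory ligand for T cells, was at 0.36 (-0.15 to 0.89). Chaperones that assist class I loading differed little, with ratios from -0.07 to 0.15 for Calr, Canx, Pdia3 and Tapbpl.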

How the data were processed

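The authors extracted RNA with a column kit, prepared directional poly-A libraries, trimmed reads with Trim Galore and aligned them with HISAT2 to mm39, per the labels. Versions and the counting settings for strand and shared reads are not given in the sources used here. The deposited values are raw counts per gene from featureCounts, 1 column per library. Of counts from 1 to 10, 70.7% and 73.4% were even, against 49.9% and 50.2% from 100 to 1000, so 2 counts were taken as 1 read pair for intervals and for the limit of 0 (3 read pairs, 6 counts). No per-sample column was left unused.

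Size factors were computed by the median of ratios (DESeq2 1.42.0; wild-type 1.11, Ucp1-KO 0.901). A log2 ratio is log2 of Ucp1-KO over wild-type normalised counts with a pseudocount of 0.5, and the 15212 genes whose normalised count averaged 10 or more were examined. Ratio intervals are exact conditional binomial intervals (Clopper-Pearson). Shares carry exact binomial intervals, and ratios between genes carry normal intervals on the log scale. Reads lack molecular identifiers, so intervals cover counting error only. With 1 library per genotype no test was made. edgeR 4.0.16 supplied TMM factors as an alternative, and the ratio script was checked on simulated data.

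The members and lists were chosen with earlier results of these data known. Named were the class II, classical class I and partner genes, the 6 other H2- genes with the highest mean and the 6 with the largest ratio, the 10 pathway genes with the largest ratio at a mean of at least 50, up to 3 abundant genes per marker list, and Ucp1. Other genes that are named were chosen after their values were seen. Among them were the liver genes, overlapping genes, Socs1, Ifngr1, Psme2, and the immunoproteasome and chaperone genes. Also among them were the markers Cd68, Cd163, Fcgr1, Itgax, Flt3 and Cox8b. Positions, transcript lengths and shared windows come from GENCODE release M39 on GRCm39, to which 45 of 50 members matched by symbol.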

Additional observations from a re-analysis of the deposited data

How the results depend on the processing

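Dividing by total counts moved the median of all genes by -0.31. Under it the class I heavy chain median was -0.45 and the class I pathway median -0.29, the class II chain and class II pathway medians turned to -0.069 each, H2-K1 turned to -0.11, and 4 members were at least 2-fold lower. Without a filter on low counts, 3 members were at least 2-fold higher and 5 lower. When the whole interval on read pairs had to lie beyond 2-fold, 0 members were higher and 1, H2-Q10, was lower. TMM factors gave 1 higher and 3 lower. The shares of all genes under these other settings are not given here, so the counts are not read as a trait of the members. The class II minus class I median was 0.38 with total counts, where scaling could hardly change it. It was 0.56 without a filter, 0.52 at a minimum of 50 and 0.16 from summed counts. Of 25 named members, all 25 moved by less than their counting interval with TMM factors and with a pseudocount of 5, and 18 moved by more with total counts. The cause of the shift with total counts was not tested. No paired analysis was possible because there was 1 library per genotype, and for the same reason no library could be left out. Depth limits H2-Ob, H2-Oa, H2-DMb2, Ciita and the heavy chains with under 20 counts, whose differences were not detectable or rest on few reads.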

Other observations

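The H2- genes with a position span 3.58 Mb of chromosome 17 (GRCm39 34214987 to 37794472), and 95 other genes within this span were examined. At least 2-fold higher in the Ucp1-KO library were 8 and lower were 3, together 11.6% of the 95, beside 17.0% of all genes examined, and their median log2 ratio was 0.07. Genes named here were chosen after their values were seen. Hspa1b, an inducible heat shock protein of the MHC class III region, was at 270 (wild-type) and 688 (Ucp1-KO) counts, a log2 ratio of 1.65 (1.36 to 1.95), whereas its neighbour Hspa1l, which encodes a related chaperone known from testis, was at 593 and 198 counts, a log2 ratio of -1.28 (-1.63 to -0.95). Ubd, a ubiquitin-like modifier induced by interferon-gamma, held 4 and 22 counts, a log2 ratio of 2.60 (0.56 to 5.97), and Tsbp1 held 12 and 71 counts.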
